A study of Mus musculus with 6 samples.

Results

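Erythroid genes serve the making of red blood cells, and 10 of them were examined in leukaemic and normal mouse stem cell cultures: Gata1, Aqp1, Add2, Ank1, Ermap, Tfrc, Blvrb, Car1, Car2 and Sphk1. They were chosen by gene symbol, with earlier results of these data known, and all 10 were among the 29872 genes of the deposited table. The data were 3 CML (chronic myeloid leukaemia) and 3 WT (wild type) bulk RNA-seq libraries from bone marrow of mice on the C57BL/6 background. Per the labels, the cells of both groups were untreated, expanded ex vivo and sorted as Lin-Sca1+cKit+CD150+, a gate that enriches blood stem cells and leaves out cells with mature lineage markers. The sources used here give neither the allele that drives the CML cells nor the age of the animals or any pooling. Whether the 3 libraries in each group stem from different mice or cultures is not stated either, so p-values measure no more than the scatter among the libraries at hand, and that scatter may be technical.

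Red cell formation is directed by the zinc finger factor GATA1, which acts with KLF1 and TAL1 on genes for haemoglobin, haem synthesis, iron uptake and the red cell membrane. GATA1 is also used in megakaryocytes, mast cells, basophils and eosinophils. Transferrin receptor, carbonic anhydrase 2 and sphingosine kinase 1 are made by many dividing or non-erythroid cells, so a change in one of them is not specific to the red cell lineage.

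The CML libraries held 13323469 to 15433481 estimated counts, and the WT libraries 15930585 to 17926847. Levels are given as CPM, counts scaled to library size with TMM factors (edgeR's correction for composition), and 1 count was worth about 0.06 CPM. The test was edgeR's quasi-likelihood test over 16221 genes with enough counts, called at a Benjamini-Hochberg adjusted p under 0.05. Of those genes 10.2% were called higher and 7.2% lower in CML, and with scaling by library totals alone 12.7% and 4.51%. Groups did not overlap for 35.0% of the tested genes, with all CML values above all WT values for 18.5% and below for 16.5%. Of the genes of the sort gate, Kit, which encodes cKit, was present in every library. It had 202 to 402 CPM in CML and 285 to 302 CPM in WT. Kit alone does not check the gate, which also uses Sca1 and CD150.

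Among the 10 erythroid genes, 6 had enough counts to be tested. Gata1, Aqp1 and Add2 rose in CML, Tfrc fell, and Blvrb and Car2 did not pass the threshold. Car1, Ermap, Ank1 and Sphk1 were too scarce for the test, and their counts are given with ratios. Among the 6 tested, all CML values were above WT for 4 and below for 1, while 35.0% of all tested genes did not overlap. The untested Ermap, Ank1 and Sphk1 also had CML values above WT, with at most 2 counts in any WT library. No share without overlap was computed over untested genes, so these have no background beside them. The groups overlapped for Car1 and Car2.

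**Figure D1:**
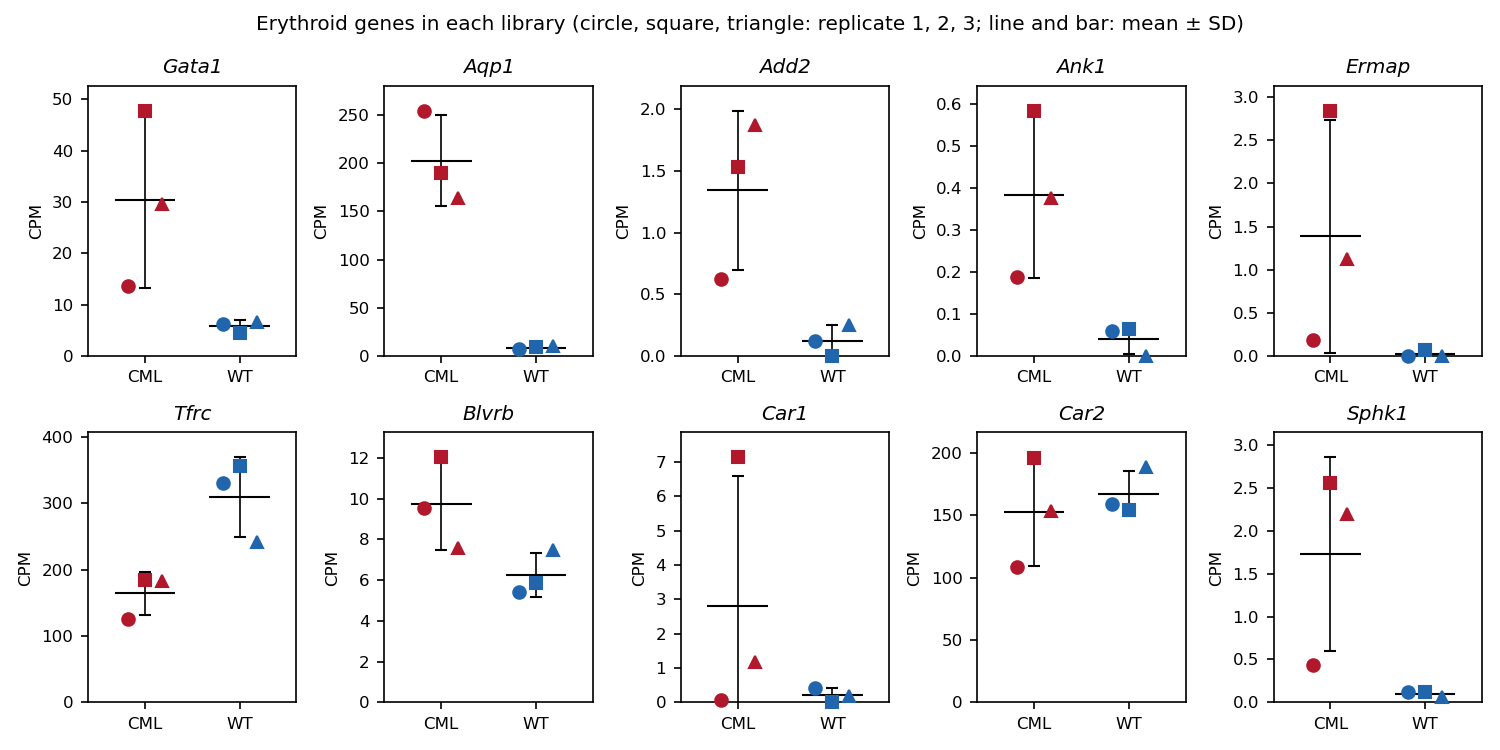
Scaled level (CPM, linear axis from 0) of each of the 10 erythroid genes in the CML and WT libraries, 1 point per library with the marker shape giving the replicate, and the mean with its SD over n = 3 libraries. The Car1 bar in CML would reach below 0 and is drawn to the axis. The groups lie far apart for Aqp1. For Tfrc they do not overlap, but WT replicate 3 (242 CPM) lies nearer to CML replicate 2 (184 CPM) than to WT replicate 2 (356 CPM). Gata1, Ermap and Car1 spread widely within CML.

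Gata1, the factor that gives the erythroid programme its direction, had 13.6, 47.8 and 29.7 CPM in CML replicates 1, 2 and 3, against 6.27, 4.42 and 6.60 CPM in WT. Each CML library was above each WT library, but CML replicate 1 lay nearer to WT than to CML replicate 2, which had 3.51 times its level. Means were 30.4 ± 17.1 CPM in CML, against 5.76 ± 1.18 CPM in WT (SD, n = 3 each), a log2 fold change of 2.39 (SE 0.48, edgeR adjusted p = 0.0209). The call did not survive the omission of CML replicate 3 (adjusted p = 0.0635) or of WT replicate 1 (0.153), 2 (0.105) or 3 (0.0648), nor did it hold when low counts were not filtered (0.0878). The log2 fold change stayed between 1.91 and 2.74 over the fits that each left out 1 library. The gene lies on chromosome X, 7959260 to 7978071 on the minus strand (GRCm38).

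The list of erythroid transcription factors held 14 genes, Gata1 among them, and each was tested. Of these, Gata1 and 3 others rose and 1 fell, with a median log2 fold change of 0.15, against a median of -0.0043 over the 16221 tested genes. Klf1, the activator of adult beta globin, had 1.71 ± 1.17 CPM in CML, against 0.14 ± 0.13 CPM in WT (log2 ratio 3.48, SE 0.75, edgeR adjusted p = 0.00944). At 75 counts over the CML libraries and 7 over WT it passed the filter through CML alone, and it missed the threshold without WT replicate 1 on the same genes (adjusted p = 0.0522). Bcl11a, a repressor of embryonic and fetal globin genes that is also active in lymphoid and dendritic precursors, rose by 1.24 on the log2 scale. Lmo2, a bridging subunit of the complex that holds GATA1 and TAL1, fell by 0.68. Gfi1b, a repressor needed in erythroid and megakaryocytic cells, had a log2 fold change of 0.47 at the edge of the threshold (adjusted p = 0.0464), which it missed without any 1 of CML replicates 1, 2 and 3 or WT replicates 1 and 2 (adjusted p from 0.0516 to 0.222). The number of factors called higher, Gata1 counted where it passed, was 2 when CML replicate 3 or WT replicate 1 or 2 was left out. It was 1 without WT replicate 1 when the same genes were tested. Tal1, Ldb1 and Myb had log2 fold changes of 0.14, 0.11 and 0.01 and did not pass. Gata2, which GATA1 replaces as erythroid cells mature, had 41.7, 89.2 and 75.3 CPM in CML replicates 1, 2 and 3 and 47.0, 38.2 and 40.7 CPM in WT, with overlapping groups (adjusted p = 0.0931). Without CML replicate 1 it passed, with a log2 fold change of 0.97 (edgeR adjusted p = 2.74e-04). CML replicate 1 lay within the WT range, so this call followed from leaving that library out. Genes that did not pass or were not tested, and are named for these and the later gene groups, were chosen after their values were seen, as were the named lymphoid, endothelial and macrophage markers.

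The membrane genes held the largest difference among the 10. Aqp1 encodes the water channel of red cells, which is also found in endothelium and kidney. It had 255, 189 and 163 CPM in CML replicates 1, 2 and 3, against 6.99, 9.28 and 9.78 CPM in WT. The lowest CML library was far above the highest WT library, and here CML replicate 1 was the highest of the CML libraries. Means were 202 ± 47.0 CPM in CML, against 8.68 ± 1.49 CPM in WT, which gave a log2 fold change of 4.54 (SE 0.20, edgeR adjusted p = 6.72e-08). The log2 fold change lay between 4.34 and 4.68 with any 1 library left out, and the call held in each of the 14 alternative settings. Aqp1 is on chromosome 6, 55336432 to 55348555 on the plus strand, and no other annotated gene overlaps it.

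Add2 encodes beta adducin, which caps actin and ties it to spectrin under the red cell membrane. It was scarce, with 10, 21 and 30 counts in CML replicates 1, 2 and 3, against 2, 0 and 4 in WT, and it passed the filter through CML alone. The groups did not overlap, at 1.35 ± 0.65 CPM in CML, against 0.12 ± 0.12 CPM in WT. Its log2 fold change was 3.36 (SE 0.69, edgeR adjusted p = 0.00518), and the summed counts of 61 and 6 gave a ratio of 10.8 with an exact 95% binomial interval of 4.70 to 30.7 for counting error alone. The paralogues Add1 and Add3, which were far more abundant, had log2 fold changes of 0.14 and 0.00 and did not pass. Add2 (chromosome 6, 86028681 to 86124409, plus strand) overlaps an antisense gene with 1 count in CML and 1 in WT, and a same-strand gene model with 7 in CML and 1 in WT.

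Ank1 encodes the ankyrin that ties the anion exchanger to spectrin. It had 3, 8 and 6 counts in CML replicates 1, 2 and 3, against 1, 1 and 0 in WT, and was not tested. The sums of 17 and 2 gave a ratio of 9.06 (exact 95% interval 2.15 to 80.9), and with no low-count filter the adjusted p was 0.0677 (edgeR). Ank1 (chromosome 8, 22974844 to 23150497) overlaps 5 other annotated genes, 3 of them on the opposite strand, and the sources used here do not state whether counting used strand.

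Ermap encodes an erythroid membrane protein of the immunoglobulin superfamily that carries the Scianna blood group in humans. It had 3, 39 and 18 counts in CML replicates 1, 2 and 3, against 0, 1 and 0 in WT. Each CML library was above each WT library, yet CML replicate 2 had 15.1 times the scaled level of CML replicate 1. The ratio of the summed counts, 60 against 1, was 64.0 with an exact 95% interval of 11.1 to 2568. Ermap was not tested in the main fit. With no low-count filter, where 6.04% of 29299 genes were called higher, it passed (edgeR adjusted p = 0.0128). It missed the threshold in the fits that left out WT replicate 1 (0.104), 2 (0.122) or 3 (0.0658), where it had enough counts to be tested.

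In the wider list of red cell membrane and skeleton genes, 12 of 22 could be tested. Of these, Aqp1, Add2 and Stom rose, 0 fell, and the median log2 fold change was 0.25. Stom, the gene of the membrane protein stomatin, which many tissues use, had 50.7 ± 2.37 CPM in CML, against 19.2 ± 2.50 CPM in WT (log2 ratio 1.40, SE 0.13, edgeR adjusted p = 1.55e-05). Slc4a1, the anion exchanger of mature red cells, was near the limit of detection, with 1 count in each CML library and 0 in each WT library. Without CML replicate 1, more genes had enough counts for the test (16696, of which 11.5% were called higher), and 8 of the membrane genes were called higher and 0 lower. Leaving out the library with the lowest values lets scarce genes pass the filter through the remaining CML libraries alone, and on the 16221 genes the count without CML replicate 1 was 4. Without WT replicate 3, 1 membrane gene was called lower. Among the 8 were Aqp1, Add2, Stom and Ermap, with the blood group gene Kel, the ammonia channel gene Rhag and the tropomodulin gene Tmod1. Kel, Rhag and Tmod1 had adjusted p-values of 1.43e-04, 0.00226 and 9.43e-04 in that fit (edgeR), and were chosen after their values were seen.

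**Figure D2:**
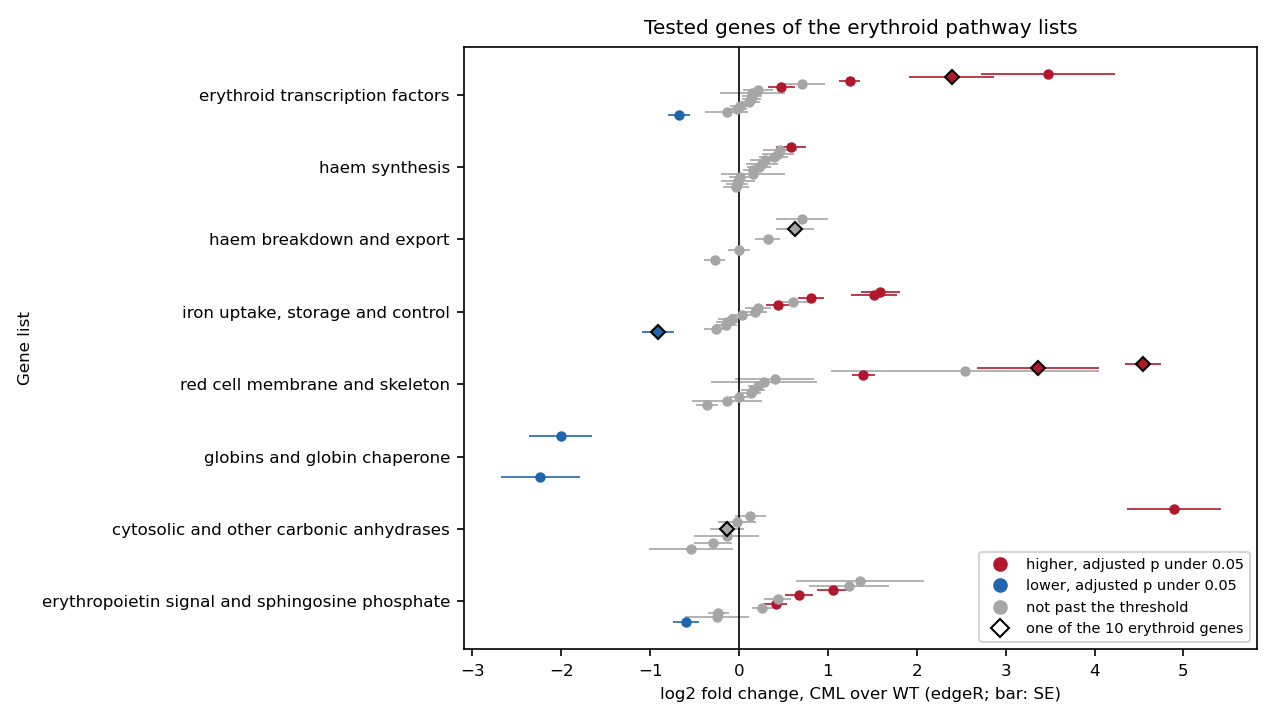
Log2 fold change of CML over WT (bars: SE) for each tested gene of the erythroid, haem, iron, membrane, globin, carbonic anhydrase and signalling lists, with red for genes higher, blue for genes lower and grey for genes not past the threshold. Diamonds mark those of the 10 erythroid genes that were tested; Aqp1 lies furthest right in the membrane list and Tfrc furthest left in the iron list.

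RefSeq promoter sequences (GRCm38.p6) matched 7 of the 10 genes: Gata1, Aqp1, Add2, Ermap, Tfrc, Blvrb and Sphk1. The 250 bases before the start site are shown for 4 genes whose CML values were each above WT and that differ in these letters. Capitals mark the hexamers AGATAA or AGATAG and also TGATAA or TGATAG, which GATA factors bind, and the pentamer CACCC, the core of KLF1 sites, on either strand. The positions of the 2 kinds of match do not overlap in these windows.
Aqp1, chr6:55336049-55336298, plus strand: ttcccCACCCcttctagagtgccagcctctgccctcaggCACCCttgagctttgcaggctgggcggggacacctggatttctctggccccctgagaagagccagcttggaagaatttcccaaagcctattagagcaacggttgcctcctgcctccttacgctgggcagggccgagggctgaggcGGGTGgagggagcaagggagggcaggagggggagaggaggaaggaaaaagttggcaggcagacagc
Add2, chr6:86028431-86028680, plus strand: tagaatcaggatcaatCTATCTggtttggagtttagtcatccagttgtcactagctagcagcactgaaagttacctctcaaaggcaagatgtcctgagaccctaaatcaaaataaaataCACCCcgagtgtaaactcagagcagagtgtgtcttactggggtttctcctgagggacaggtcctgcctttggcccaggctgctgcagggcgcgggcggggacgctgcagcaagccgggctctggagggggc
Ermap, chr4:119189996-119190245, minus strand: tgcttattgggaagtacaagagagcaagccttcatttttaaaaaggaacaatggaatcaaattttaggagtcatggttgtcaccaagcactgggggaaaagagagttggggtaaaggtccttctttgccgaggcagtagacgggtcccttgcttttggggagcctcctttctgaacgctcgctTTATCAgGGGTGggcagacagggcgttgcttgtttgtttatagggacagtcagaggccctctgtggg
Gata1, chrX:7967911-7968160, minus strand: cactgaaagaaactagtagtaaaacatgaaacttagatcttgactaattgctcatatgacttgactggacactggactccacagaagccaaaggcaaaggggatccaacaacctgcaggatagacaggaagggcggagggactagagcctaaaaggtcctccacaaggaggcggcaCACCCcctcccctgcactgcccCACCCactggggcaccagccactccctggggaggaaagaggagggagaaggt

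Add2 and Ermap each held 1 GATA hexamer, beginning 234 and 67 bases before the start site, and 1 CACCC match each. Aqp1 held 3 CACCC matches and Gata1 2, and neither held a GATA hexamer. The Gata1 window lies inside the longer GENCODE gene model. Over 32851 RefSeq windows of the same length, 26.5% held at least 1 GATA hexamer, 52.0% at least 1 CACCC match, 21.1% at least 2 and 6.92% at least 3. The Tfrc windows, for the gene that fell, held no GATA hexamer either. These matches describe letters in the windows and were not measured as bound.

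Tfrc, the transferrin receptor that brings iron into dividing cells and in large amounts into erythroblasts, was the single gene of the 10 that fell. It had 126, 184 and 182 CPM in CML replicates 1, 2 and 3, against 330, 356 and 242 CPM in WT. Each CML library was below each WT library, with WT replicate 3 the lowest of its group. Means were 164 ± 33.0 CPM in CML, against 309.6 ± 60.0 CPM in WT, which gave a log2 fold change of -0.92 (SE 0.18, edgeR adjusted p = 0.00573). The value lay between -1.07 and -0.76 with 1 library left out, and the call held in each of the 14 alternative settings. Tfrc is on chromosome 16, 32608920 to 32632794 on the plus strand.

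The other called genes of iron handling were higher in CML. Of 13 listed genes, each tested, 4 rose and Tfrc alone fell, and the median log2 fold change was 0.18. Hfe, whose protein binds the transferrin receptor, had 12.3 ± 3.04 CPM in CML, against 4.06 ± 0.47 CPM in WT (log2 ratio 1.59, SE 0.22, edgeR adjusted p = 3.24e-04). Slc40a1, the iron exporter ferroportin, which is prominent in macrophages, rose by 1.51 on the log2 scale. Tfr2, a sensor of bound transferrin found in erythroid cells and liver, rose by 0.81. Ftl1, the ferritin light chain that stores iron, had a log2 fold change of 0.44 (adjusted p = 0.0341), and missed the threshold when CML replicate 2 or 3 or WT replicate 1 or 2 was left out (adjusted p from 0.0894 to 0.162). Fth1, the ferritin heavy chain, had a log2 fold change of -0.26, and Ireb2 and Aco1, whose proteins control the Tfrc transcript when iron is low, had -0.13 and 0.21; these 3 did not pass.

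Blvrb encodes biliverdin reductase B, a flavin and haem breakdown product reductase abundant in red cells. It had 9.54, 12.04 and 7.57 CPM in CML replicates 1, 2 and 3, against 5.44, 5.87 and 7.47 CPM in WT. The groups did not overlap, but the lowest CML library and the highest WT library were almost level. The log2 fold change of 0.63 (SE 0.22) did not pass (edgeR adjusted p = 0.0619). It did pass with scaling by library totals (0.0412), without CML replicate 3 (0.0482) and without WT replicate 3 (0.0340).

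Of 13 haem synthesis genes, each tested, 1 rose and 0 fell, a share near the 10.2% of all tested genes called higher, with a median log2 fold change of 0.23. The gene called was Slc25a38, which imports glycine into mitochondria for haem synthesis (log2 fold change 0.59, adjusted p = 0.0308). It missed the threshold when CML replicate 2 or 3 or WT replicate 1 or 2 was left out (adjusted p from 0.0701 to 0.134), so the list count was 0 in those fits, and it was 2 without CML replicate 1 and 3 without WT replicate 3. Alas2, the erythroid form of the first enzyme, had 1.35 ± 0.52 CPM in CML, against 1.21 ± 0.04 CPM in WT (log2 ratio 0.16, SE 0.36, adjusted p = 0.808). Of the 5 genes of haem breakdown and export, 0 passed in edgeR's test, and 0 to 1 passed in either direction with 1 library left out.

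Adult beta globin transcripts were lower. Hbb-bs had 6.09, 17.3 and 15.8 CPM in CML replicates 1, 2 and 3, against 48.2, 51.6 and 57.2 CPM in WT. Hbb-bt had 15.1, 51.7 and 39.6 CPM in CML and 157, 177 and 165 CPM in WT. The groups did not overlap for either gene. The log2 fold changes were -2.01 (SE 0.35, edgeR adjusted p = 0.0108) and -2.23 (SE 0.45, adjusted p = 0.0283). The sequences are near-identical, so the split of reads between them is uncertain. Hbb-bs missed the threshold without WT replicate 1 (0.0793) and when low counts were not filtered (0.0532). Hbb-bt missed it without CML replicate 3 (0.0977) or any 1 WT replicate (0.0637 to 0.132), and when low counts were not filtered (0.0718). Hba-a1 had counts in 2 CML libraries and 0 in WT, and without CML replicate 1 it entered the test and was called higher, through the remaining CML libraries (adjusted p = 0.00184). Hba-a2 was at or below 0.565 CPM in each library. In such bulk samples fewer cells of a type and less RNA per cell cannot be told apart.

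Carbonic anhydrases turn carbon dioxide and water into bicarbonate, and Car1 and Car2 are the cytosolic forms of red cells. The genes lie in 1 region of chromosome 3, Car1 at 14766216 to 14808368 on the minus strand and Car2 at 14886273 to 14900770 on the plus strand. Car1 had 1, 98 and 19 counts in CML replicates 1, 2 and 3, against 7, 0 and 3 in WT. CML replicate 1 lay within the WT range, and CML replicate 2 held most of the CML counts, so the groups overlapped. The ratio of mean CPM was 13.9 in all and 3.10 without CML replicate 2, and the gene was not tested in the main fit. With no low-count filter it did not pass (edgeR adjusted p = 0.378). Without CML replicate 1 its adjusted p was 0.0300, but there it entered the test only through the high counts of the remaining CML libraries, so that call depends on the omission itself.

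Car2 was abundant and did not differ beyond its spread. It had 109, 196 and 154 CPM in CML replicates 1, 2 and 3, against 159, 155 and 188 CPM in WT. The log2 fold change was -0.13 (SE 0.19, edgeR adjusted p = 0.687), and it turned to 0.06 without CML replicate 1. Of the 7 tested carbonic anhydrase genes 1 rose and 0 fell, with a median of -0.13. The count was 3 higher without CML replicate 1, where Car1 and Car5b entered the test, and 1 higher on the 16221 genes. Without WT replicate 3, 1 gene was called lower. The gene that rose was Car8, a relative that lacks the catalytic activity, at 18.6 ± 9.66 CPM in CML, against 0.61 ± 0.26 CPM in WT (log2 ratio 4.89, SE 0.53, adjusted p = 7.66e-04).

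Sphk1 encodes a kinase that makes sphingosine 1-phosphate, a lipid that red cells store and release into plasma. It had 7, 35 and 35 counts in CML replicates 1, 2 and 3, against 2, 2 and 1 in WT. The groups did not overlap, and CML replicates 2 and 3 stood at 5.81 and 4.99 times the scaled level of CML replicate 1. The sums of 77 and 5 gave a ratio of 16.4 (exact 95% interval 6.74 to 52.0). With no low-count filter it passed (edgeR adjusted p = 4.26e-05). In the main fit it was not tested, because CML replicate 1 fell short of the filter.

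Among other genes of erythropoietin and sphingosine phosphate signalling, 3 of 10 tested rose and 1 fell, with a median log2 fold change of 0.42. Sgpl1, the lyase that breaks sphingosine 1-phosphate down, rose by 1.06, and Jak2, the kinase of the erythropoietin receptor and of many other receptors, by 0.68. Spns2, an exporter of the lipid from endothelium, fell by 0.59. Stat5b had a log2 fold change of 0.41 (adjusted p = 0.0417). With 1 library left out the number called higher in the list ran from 2 to 6, with Sphk1 counted where it had enough counts, and from 1 to 5 on the 16221 genes, with the 1 coming without WT replicate 2. The adjusted p of Stat5b was 0.106 to 0.172 when CML replicate 2 or 3 or WT replicate 1 or 2 was left out, and that of Spns2 was 0.0676 without CML replicate 2 and 0.0553 without WT replicate 2. Jak2 missed the threshold without WT replicate 2 (0.0534). Epor, the erythropoietin receptor, had 1.00, 4.23 and 2.57 CPM in CML replicates 1, 2 and 3, against 1.19, 1.14 and 0.93 CPM in WT (adjusted p = 0.0804). Mfsd2b, the exporter of sphingosine 1-phosphate in red cells and platelets, had 5.08, 34.5 and 27.9 CPM in CML and 9.08, 8.08 and 9.03 CPM in WT (adjusted p = 0.280). Without CML replicate 1 both passed, Epor with a log2 fold change of 1.62 (edgeR adjusted p = 0.00544) and Mfsd2b with 1.83 (adjusted p = 4.86e-06). CML replicate 1 lay within the WT range for Epor and below it for Mfsd2b, so these calls followed from leaving that library out.

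The CML libraries ranked alike across most of the 10 genes. Replicate 1 was the lowest CML library for 8 of them, the exceptions being Aqp1 and Blvrb. It was the lowest for 4 of the 6 that were tested, for 36.9% of the 16221 tested genes and for 57.1% of the 1652 genes called higher. For 7 of the 10 the order was replicate 1, then 3, then 2. That order held for 3 of the 6 that were tested, for 19.8% of the 16221 tested genes and for 41.8% of the genes called higher. For Gata1, Add2, Car1, Ermap and Sphk1, CML replicate 1 was at least 2-fold below the other CML libraries, a gap found in 2.16% of the tested genes and 6.72% of the genes called higher. Ermap, Car1 and Sphk1 were not among those tested, so the gap was found in 2 of the 6 that were.

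**Figure D3:**
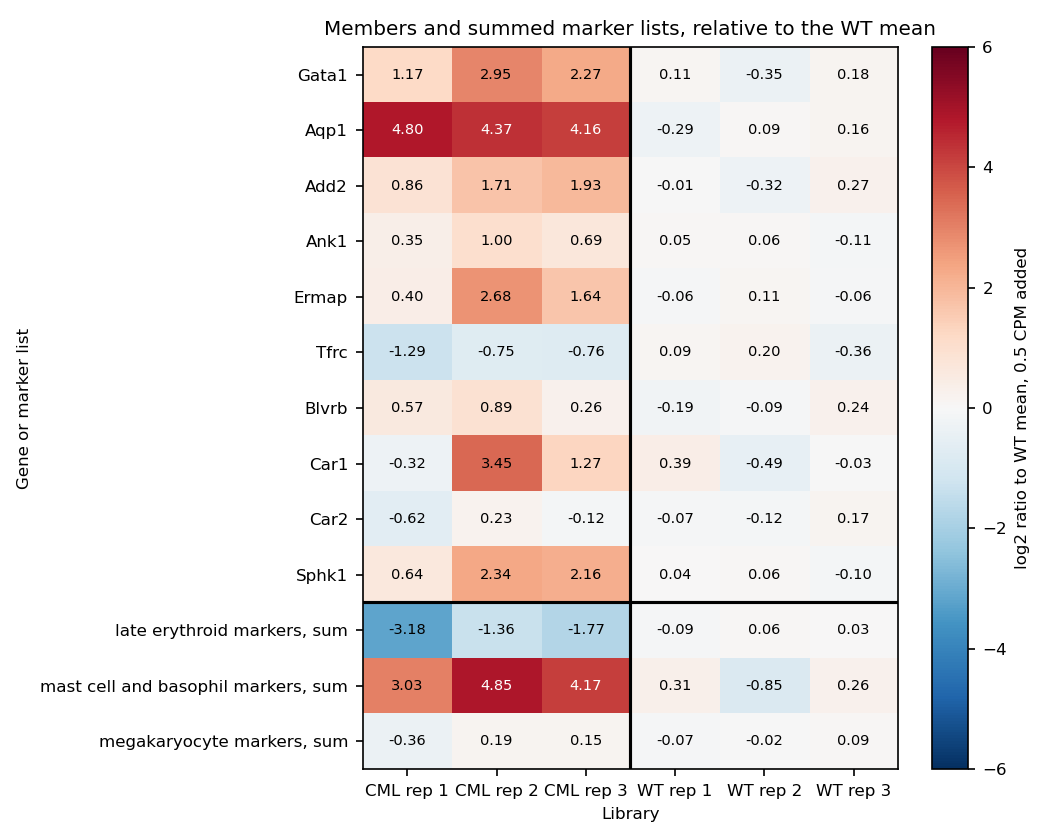
Log2 ratio of each library (columns) to the WT mean, with 0.5 CPM added to both, for the 10 erythroid genes and for 3 summed marker lists (rows). Within CML most rows have their lowest value in replicate 1 and their highest in replicate 2, while Aqp1 is highest in replicate 1. The late erythroid sum comes mostly from Hbb-bs and Hbb-bt.

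Markers of some other cell types were also higher in CML. The 12 mast cell and basophil markers, lineages that also use GATA1, summed to 2331, 8249 and 5153 CPM in CML replicates 1, 2 and 3, the same order, against 355, 159 and 343 CPM in WT. Of the 11 tested, 7 were called higher and 0 lower, and each of the 12 had counts in both groups. Cpa3, a mast cell protease gene, led the list at 1336, 4601 and 2783 CPM in CML, against 129, 55.4 and 97.5 CPM in WT. The call on Cpa3 (adjusted p = 0.00846) was lost without WT replicate 1 (0.0519), as was that on Il1rl1 (0.0690), the next most abundant. The 10 monocyte and macrophage markers summed to 98.7 to 161 CPM in CML and 11.7 to 17.9 CPM in WT, with 6 of 6 tested higher and the complement genes C1qa and C1qc at 0 in WT. Their part in the higher values of Gata1, Ermap, Car1 and Sphk1 was not tested.

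The 12 megakaryocyte markers summed to 277 to 406 CPM in CML and 338 to 379 CPM in WT, with 1 higher and 2 lower of 10 tested. The lower call on Itga2b was lost in 5 of the 6 fits that left out 1 library (adjusted p from 0.0624 to 0.112, all but that without CML replicate 3) and with library totals (0.0813). The 10 neutrophil markers summed to 157 to 260 CPM in CML and 128 to 253 CPM in WT, with 0 called of 8 tested in edgeR's test. The 10 lymphoid markers summed to 31.6 to 39.9 CPM in CML and 11.6 to 16.4 CPM in WT, most of it from Cd79b, the sole member called (higher) of 2 tested. Endothelium is a cell type that expresses Aqp1. Of the 6 genes in the endothelial list, the most abundant were Pecam1 and Pdgfrb, and Pdgfrb is not specific to endothelium. The 6 summed to 215, 238 and 246 CPM in CML replicates 1, 2 and 3, against 140, 118 and 155 CPM in WT. Each CML library was above each WT library. Of the 5 tested, Pdgfrb was called higher and Kdr and Tek lower, with a median log2 fold change of -0.83. The list thus did not rise as a set. Pecam1 had a log2 fold change of 0.43 (edgeR adjusted p = 0.153) and passed without CML replicate 1 (0.58, adjusted p = 0.0358), and Cdh5 was at or below 0.19 CPM in each library. The part of these cells in the Aqp1 values was not tested. The 8 gate and stem cell markers summed to 579 to 865 CPM in CML and 659 to 763 CPM in WT, with 0 called higher and 2 lower. The 11 late erythroid markers found in the table summed to 24.1, 86.4 and 64.9 CPM in CML and 208, 232 and 226 CPM in WT. Most of each sum came from the globin genes Hbb-bs and Hbb-bt. Of the 6 tested, these 2 were called lower and 0 higher, with a median log2 fold change of 0.22. The lower sum thus describes the globin genes and not the list as a set.

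Levels between genes were compared per kilobase of annotated exon. In CML the order by mean CPM per kilobase was Aqp1, Car2, Tfrc, Gata1, Blvrb, Car1, Sphk1, Ermap, Add2 and Ank1. In WT it was Car2, Tfrc, Aqp1, Gata1, Blvrb, Car1, Sphk1, Add2, Ermap and Ank1. The length-scaled mean of Aqp1 was 77.1 ± 17.9 in CML and 3.31 ± 0.57 in WT. That of Car2 was 63.1 ± 18.1 in CML and 69.1 ± 7.57 in WT, so Aqp1 and Car2 overlapped in CML. Gata1 had 12.5 ± 7.01 in CML and 2.36 ± 0.48 in WT, and Blvrb 3.49 ± 0.80 and 2.25 ± 0.39, so these neighbours overlapped in WT, where the lowest Aqp1 library also fell within the Gata1 range. Car1, Sphk1, Ermap, Add2 and Ank1 had mean length-scaled levels of 2.24 or less in CML and 0.16 or less in WT.

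**Figure D4:**
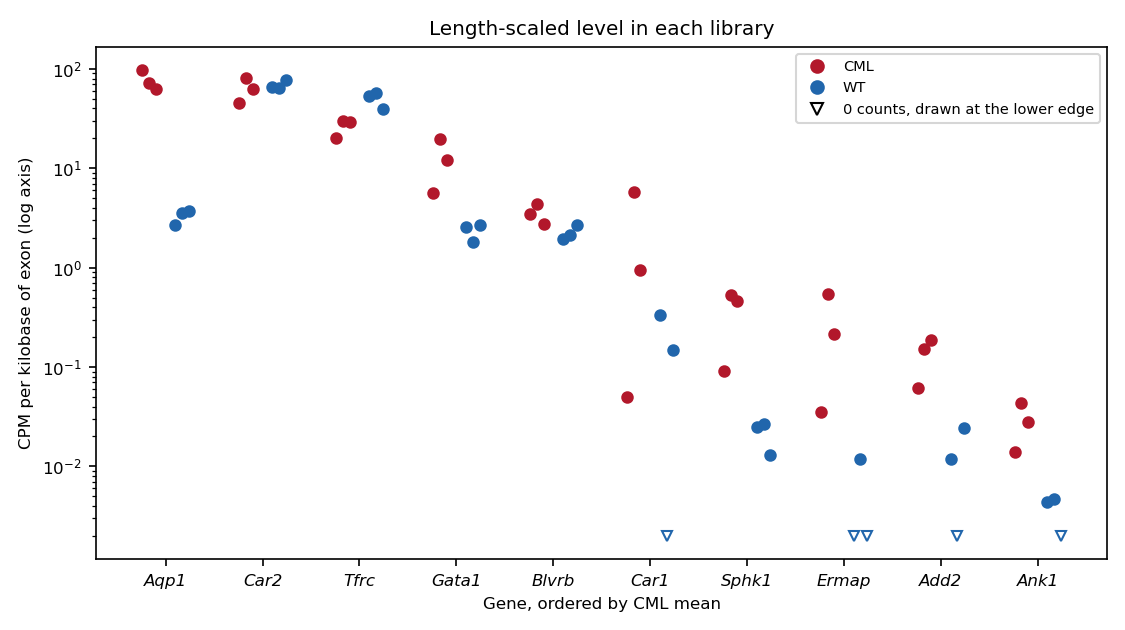
Level of each erythroid gene in CPM per kilobase of exon (log axis) in every CML and WT library, ordered by the CML mean, with libraries at 0 counts drawn as open triangles at the lower edge. Aqp1 has the highest mean in CML, where it overlaps Car2, and lies near Gata1 and Blvrb in WT.

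Shares of all tested genes called in each setting are given as background to the calls on the 10 genes. Because the 10 were chosen with earlier results of these data known, setting their calls against these shares is not a test. The shares called higher and lower in CML were 10% and 7.4% with RLE size factors, 10.1% and 8.37% with DESeq2, and 9.58% and 6.53% with limma-voom. They were 10.7% and 8.2% with a mean of at least 50 counts, 6.04% and 4.93% with no low-count filter, 10.2% and 7.19% after thinning, and 9.91% and 7.4% with replicate number in the model. Without CML replicate 1 they were 11.5% and 7.44%, without CML replicate 2 7.14% and 4.06%, and without CML replicate 3 7.27% and 3.44%. Without WT replicate 1 they were 6.94% and 4.08%, without WT replicate 2 6.02% and 2.71%, and without WT replicate 3 12% and 12.5%. With the gene set held at the 16221, the shares were 11.3% and 7.48%, 7.23% and 4.19%, and 7.4% and 3.48% without CML replicates 1, 2 and 3 in turn, and 7.16% and 4.27%, 6.07% and 2.78%, and 12.4% and 12.8% without WT replicates 1, 2 and 3 in turn. In these reduced fits Tfrc was called lower each time, and Aqp1 and Add2 higher each time. Add2 entered those fits through its CML counts alone.

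**Figure D5:**
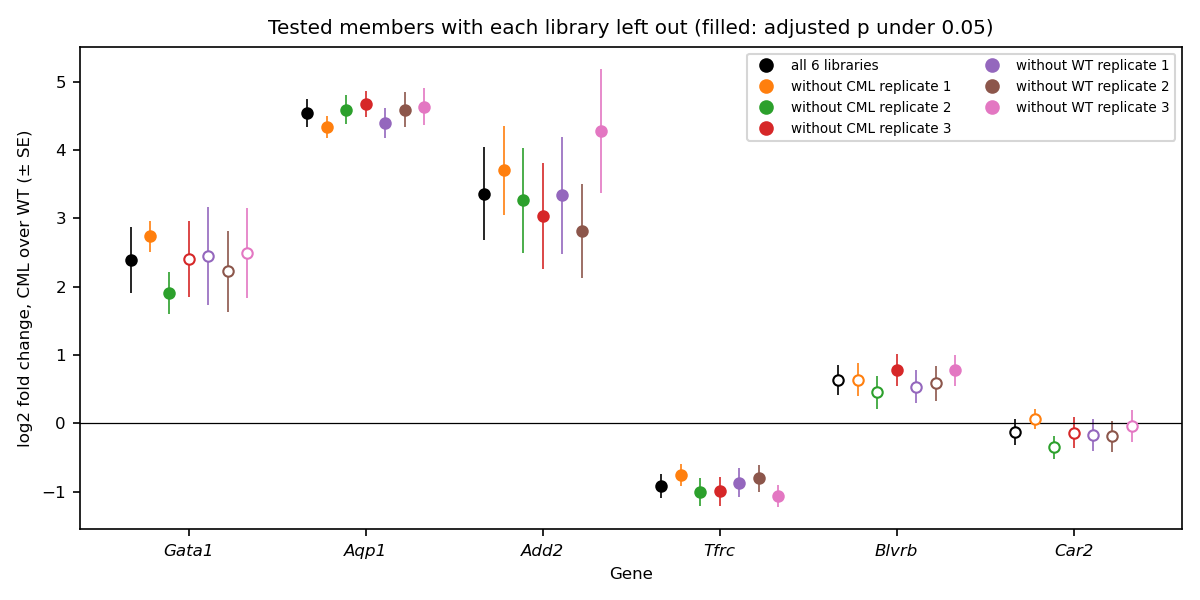
Log2 fold change of CML over WT (bars: SE) for the 6 tested genes with all 6 libraries (black) and with each library left out, filled where the adjusted p was under 0.05. Aqp1, Add2 and Tfrc are filled throughout; Gata1 is open in 4 of the 6 reduced fits while its value stays between 1.91 and 2.74.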

How the data were processed

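The authors deposited 1 table of estimated counts per gene, with 29872 symbols and 1 column per library. Between 35.0% and 36.9% of a library's values were not exactly whole, and they were rounded to whole numbers. Per the submitters' processing notes, the tools were Partek 8.0 and STAR 2.7.3a with mm10 as genome build, with no roles given. The sources used here state no annotation, strand setting or handling of shared reads. Groups and replicate numbers came from the sample titles.

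Genes were kept with filterByExpr of edgeR (minimum count 10), which left 16221. CML was tested against WT with the two-sided quasi-likelihood test of edgeR 4.0.16 in R 4.3.3 (TMM scaling, robust dispersions), adjusted over all genes tested. Alternatives were other scalings and filters, DESeq2 1.42.0, limma-voom (limma 3.58.1), thinning to the smallest library, a replicate block, and leaving out each library. The leave-one-out fits on the genes of the main test were added after seeing the data. Means have the SD over n = 3 libraries. Intervals on summed counts are exact binomial at 95% and cover counting error only, since no molecular identifiers are mentioned for these reads. Coordinates and exon lengths came from GENCODE M21 (GRCm38, the assembly of mm10), promoters from RefSeq (GRCm38.p6). The pipeline was tested on simulated data.

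The 10 genes and the lists were chosen with earlier results of these data known. The rule for named genes took the 10, up to 4 further called genes with the lowest adjusted p from each list, and the 2 most abundant genes of each marker list. Not each of the latter is given with values. The values of 1 listed gene are not reported here.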

Additional observations from a re-analysis of the deposited data

How the results depend on the processing

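Aqp1, Add2 and Tfrc kept their direction and their call in each alternative in which they could be tested. Add2 passed the low-count filter through CML alone, so its call is not on the same footing as those of Aqp1 and Tfrc. It could not be tested after thinning or where genes needed a mean of 50 counts. Gata1 kept its direction in all 14 alternative settings and lost its call in 6. The number of genes called was 2820 and ran from 1466 to 4122 with 1 library left out. In the fits added after seeing the data, on the 16221 genes only, it was 1852 without CML replicate 2, 1764 without CML replicate 3, 1853 without WT replicate 1 and 1435 without WT replicate 2, and at most 4087. Of the 10 erythroid genes, 3 were called higher, and 2 to 6 with 1 library left out, where the 6 came without CML replicate 1 and with Car1, Ermap and Sphk1 newly tested, through the remaining CML libraries alone. The 1 gene called lower stayed at 1 throughout these fits. The log2 fold change of Car2 ran from -0.35 to 0.059 with 1 library left out, changing sign without CML replicate 1 (0.063 on the 16221 genes), with no call.

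The labels do not say whether same-numbered CML and WT libraries were paired. Their deviations from the group means had correlations of -0.021, -0.052 and 0.0087. With 3 libraries per group these values cannot settle whether the libraries were paired. With the replicate block 2807 genes were called, 2 of the 10 genes higher and 1 lower, and adjusted p-values were 0.0618 for Gata1, 0.104 for Cpa3 and 0.100 for Il1rl1. Depth limits Ank1, Ermap, Add2, Car1 and Sphk1, whose WT sums were 2, 1, 6, 10 and 5 counts.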

Other observations

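Another water channel gene was higher as well. Aqp9, which passes glycerol and other small solutes and is used by leukocytes, had 98.6 ± 20.4 CPM in CML, against 51.2 ± 5.28 CPM in WT (log2 ratio 0.95, SE 0.15, edgeR adjusted p = 9.43e-04). Aqp11 did not pass (-0.36, adjusted p = 0.414), and Aqp3, Aqp4 and Aqp7 were too scarce to be tested. Among the ankyrins, Ank2 did not pass (log2 fold change 0.65, adjusted p = 0.271), and Ank3 was too scarce to be tested.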
